A study of Homo sapiens with 6 samples.

Results

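NEDD9, SGK223 and 8 genes of focal adhesion kinase signalling were followed in cells exposed to cationic liposomes (CLs). These 10 genes, NEDD9, BCAR1, EFS, PTK2, PTK2B, SRC, CRK, CRKL, PXN and SGK223, were taken by symbol from the 40205 genes in the count file. NEDD9 and SGK223 were chosen by their fall in the CLs-treated group of these same libraries, so their change and their calls are given as a description, with no p-value, and support nothing. The other 8 were chosen from their place in the same signalling complex, with earlier results of these data known. RNA-seq had been run on HepG2 cells, labelled as a human liver cancer line, in 3 control samples and 3 CLs-treated samples. The liposomes were made of the cationic lipid DOTAP, cholesterol and a PEG-coupled lipid. Exposure lasted 24 h at 120 μM by the labels, a dose that the study's text gives in μM in 1 place and in μg/ml in others, and the control cells received no CLs. The study's text calls the 6 samples independent, but neither it nor the labels say that the samples of a group were separate cultures, so the p-values measure the spread between these samples, which may be technical.

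A cell attached to matrix through integrins gathers focal adhesion kinase (FAK, encoded by PTK2) and the tyrosine kinase SRC at the attachment site. The FAK and SRC pair phosphorylates long scaffold proteins of the CAS family, which then hold the adaptors CRK and CRKL, and these recruit activators of small GTPases that drive cell spreading and movement. NEDD9 (also HEF1 or CAS-L), BCAR1 (p130Cas) and EFS (SIN) are the CAS scaffolds in this group, and PXN (paxillin) is a second docking protein at the adhesion. PTK2B (PYK2) is the close relative of FAK. SGK223, now named PRAG1 or Pragmin, is a pseudokinase scaffold that binds the SRC-inhibiting kinase CSK, and PEAK1 is its relative.

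NEDD9 is the scaffold on which the description turns, and RefSeq places its transcription starts in separate regions. A 300-base window around each start, 250 bases before it and 50 after, is held for 5 of the other genes as well (BCAR1, CRK, CRKL, EFS and PXN). A window at the upstream NEDD9 start and the window at the downstream start are shown, because the counts sum transcripts from all starts and do not say which start lost reads. Both are on the minus strand of GRCh38.p14, written 5′ to 3′, and capitals mark the GC box GGGCGG or its reverse complement. The submitters' processing notes name hg19 and GRCh37 for the reads, and no coordinate was carried between builds.
NEDD9 upstream start, chr6:11382299-11382598: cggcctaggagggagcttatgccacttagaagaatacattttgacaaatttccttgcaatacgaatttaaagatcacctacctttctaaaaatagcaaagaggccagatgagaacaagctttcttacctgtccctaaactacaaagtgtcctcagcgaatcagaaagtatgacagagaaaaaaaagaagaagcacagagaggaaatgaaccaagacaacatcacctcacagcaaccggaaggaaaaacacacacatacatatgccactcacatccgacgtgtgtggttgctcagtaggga
NEDD9 downstream start, chr6:11232619-11232918: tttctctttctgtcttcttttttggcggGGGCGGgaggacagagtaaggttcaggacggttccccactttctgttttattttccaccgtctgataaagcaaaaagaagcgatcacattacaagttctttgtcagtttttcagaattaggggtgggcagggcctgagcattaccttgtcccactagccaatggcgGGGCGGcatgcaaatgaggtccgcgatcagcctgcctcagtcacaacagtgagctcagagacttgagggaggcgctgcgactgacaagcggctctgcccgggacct
The upstream window had a GC content of 42.0% and no GC box, and the downstream window had 52.7% and 2 of them. The remaining NEDD9 window overlaps the upstream one and held no GC box either. GC boxes were found in 44.95% of the 35116 windows in the table. An AP-1 site (TGACTCA or its reverse complement TGAGTCA, found in 4.95% of all windows), a TEAD site (GGAATG or its reverse complement, 14.03%) and an E-box (CACGTG, its own reverse complement, 7.26%) were absent from the 3 NEDD9 windows. Among the 5 BCAR1 windows, 1 held an AP-1 site and the other 4 held 1 or 2 GC boxes each. These matches describe letters in the windows only.

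Between 11418527 and 13998946 reads per library were counted on genes. Values are given as counts or as CPM, counts divided by library size after TMM scaling. The summed levels of the cell type markers are instead CPM of the library total, without TMM scaling. Bulk RNA cannot tell fewer cells of a type from less RNA per cell. The libraries did not sort by group on the first principal component of log2 CPM, which held 32.5% of the variance and set Control-3 at one end (36.3) and CLs-1 at the other (-30.7). In CLs-1, 35 genes had 30 counts or more and exceeded 8 times their next highest CPM, and Control-3 had 1 such gene. The 15 hepatocyte and HepG2 markers went against the cell label, with a summed level between 0.171 and 1.96 CPM of the library total in 5 libraries and 12.3 CPM in CLs-1. Albumin (ALB) was at 0 counts in 5 libraries and at 8 in CLs-1, alpha-fetoprotein (AFP) reached at most 1 count, and APOH and TTR were at 0 throughout. The 4 epithelial markers summed to 3103 to 4797 CPM in the control libraries and to 1461 to 1939 CPM in the CLs-treated ones. Nearly all of this came from the keratins KRT8 and KRT18, which were lower in the same libraries as NEDD9 and SGK223. EPCAM and CDH1 were near 0 and did not share this fall. EPCAM had at most 2 counts in a control library and CDH1 at most 3, and they were highest in CLs-1, at 7 and 9 counts. The 4 fibroblast markers summed to 697.5 to 1081 CPM, mainly from COL3A1. Among them, COL1A2 and THY1 came almost wholly from CLs-1, which held 1044 and 58 of their counts where no other library passed 2 and 1. Endothelial markers summed to 0.0855 to 3.70 CPM and immune markers to 13.1 to 23.5 CPM. The immune sum came nearly all from CD68, while PTPRC had at most 1 count in a library and CD14 at most 9. Erythroid markers reached 34.0 CPM and steroidogenic markers 33.3 CPM in the first CLs-treated library, against at most 0.344 and 2.73 CPM elsewhere. The part of these transcripts in the results was not tested. The fold changes with and without CLs-1 are plotted side by side below.

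The scaffold NEDD9 and the pseudokinase SGK223 were the members called lower, each at about the same share of its control level. The kinases, the CRK adaptors, BCAR1 and PXN stood at 80.4% to 105.7% of theirs and were not called, which does not show them unchanged. Counts were tested with edgeR (quasi-likelihood F test, Benjamini-Hochberg adjustment over 15047 genes), and a gene was called at an adjusted p under 0.05 with a fold change above 1.5 or below 0.67. Among the 9 members with enough reads, 2 were called lower, NEDD9 and SGK223, and 0 higher. Over all genes tested, 0.0731% were called lower and 0.0133% higher, and since the calls were what chose NEDD9 and SGK223, nothing is read from that difference.

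NEDD9 counts were 1276, 1078 and 1173 in the control libraries and 798, 522 and 465 in the CLs-treated libraries, each in replicate order. Scaled, these were 110.8, 93.1 and 100.6 CPM against 55.2, 45.1 and 40.7 CPM. Every CLs-treated library lay below every control library, and the highest CLs-treated value stood well under the lowest control value. This is a log2 fold change of -1.11 (standard error 0.15), or 46.4% of the control level. SGK223 had 373, 325 and 365 counts in the control libraries and 239, 161 and 167 in the CLs-treated ones. That is 32.4, 28.1 and 31.3 CPM against 16.5, 13.9 and 14.6 CPM. Here, too, the groups lay apart, with CLs-1 the highest of its group for both genes. For SGK223 the log2 fold change was -1.02 (standard error 0.16), or 49.2% of the control level. SGK223 was the last of the 13 called genes by p, and ANXA3, just outside, had a log2 fold change of -1.03.

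**Figure D1:**
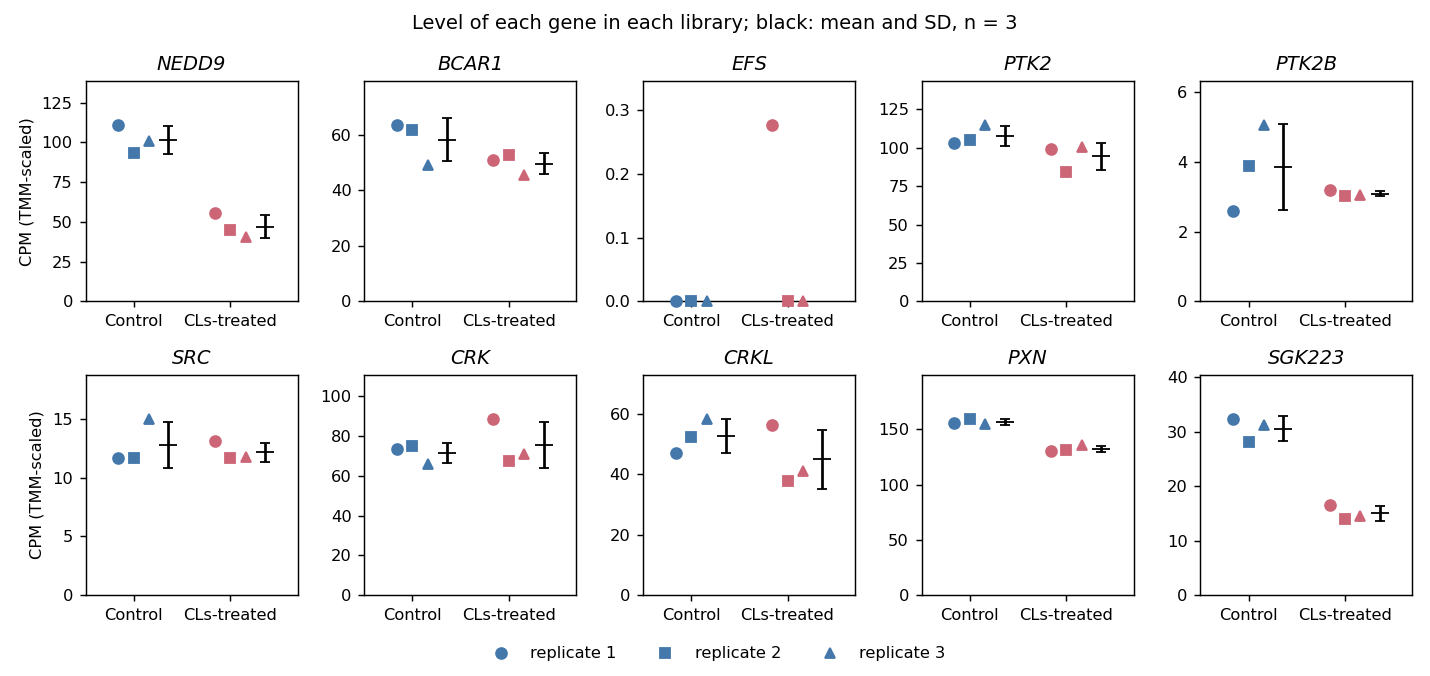
Level of each of the 10 genes in each library, in CPM on the y axis from 0, with a symbol for each replicate number and black bars for the mean and SD (n = 3, not drawn for EFS). The NEDD9 values of the CLs-treated libraries sit at 40.7 to 55.2 CPM, below the control range of 93.1 to 110.8 CPM, and SGK223 shows the same gap, while for most other genes the groups touch or overlap.

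Leaving out CLs-1 moved both further down, to a log2 fold change of -1.24 for NEDD9 and -1.10 for SGK223. Over the 6 fits that each left out 1 library, NEDD9 ranged from -1.24 to -1.01 and SGK223 from -1.10 to -0.97. In these fits of 5 libraries NEDD9 was called only without CLs-1, and SGK223 in 0 of the 6. With library totals in place of TMM scaling, NEDD9 stayed called at -1.08 and SGK223, at -0.996, was not.

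The other CAS scaffolds were not called. BCAR1, the broadly expressed family member, had 732, 716 and 575 counts in the control libraries and 737, 609 and 518 in the CLs-treated ones. Its groups overlapped, at 58.2 ± 7.78 CPM (SD, n = 3) and 49.7 ± 3.81 CPM (SD, n = 3). BCAR1 had a log2 fold change of -0.23 (95% interval -0.55 to 0.090, edgeR adjusted p = 0.951). EFS was read 4 times in CLs-1 and was at 0 in the other 5 libraries, where 3 counts, the limit that a count of 0 allows, correspond to 0.255 to 0.263 CPM of the library total. It had too few reads to be tested. CASS4, the remaining member of the family, had at most 2 counts in a library.

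As a share of the reads on NEDD9, BCAR1 and EFS together, which does not depend on the scaling between libraries, NEDD9 held 63.5%, 60.1% and 67.1% in the 3 control libraries. In the CLs-treated libraries it held 51.9%, 46.2% and 47.3%. The exact 95% binomial interval, which covers counting error only, ran down to 57.8% in Control-2, the lowest control library, and up to 54.4% in CLs-1, the highest CLs-treated one. The mean share was 63.6 ± 3.51% (SD, n = 3) without CLs and 48.4 ± 3.01% (SD, n = 3) with them. For each BCAR1 read there were 1.51 to 2.04 NEDD9 reads in the control libraries and 0.857 to 1.08 in the CLs-treated libraries. This share follows from the same NEDD9 counts and is no separate evidence of the fall.

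Of the kinases, PTK2, which encodes FAK, had 1185, 1220 and 1339 counts in the control libraries and 1429, 978 and 1145 in the CLs-treated ones. On the CPM scale the groups were 108 ± 6.30 (SD, n = 3) and 94.6 ± 8.74 (SD, n = 3), and they lay apart by a narrow margin, with the lowest control library at 102.9 CPM and the highest CLs-treated one at 100.3 CPM. PTK2 had a log2 fold change of -0.19 (95% interval -0.47 to 0.10, edgeR adjusted p = 0.966). PTK2B was measured at low depth, with 30, 45 and 59 counts in the control libraries and 46, 35 and 35 in the CLs-treated ones. Its log2 fold change of -0.31 had the widest interval of the 9 tested members, from -0.95 to 0.32 (edgeR adjusted p = 0.999), and the value moved from -0.53 without Control-1 to -0.069 without Control-3. SRC had 134, 135 and 175 counts in the control libraries and 189, 135 and 134 in the CLs-treated ones, and the groups overlapped. SRC had a log2 fold change of -0.069 (95% interval -0.48 to 0.34, edgeR adjusted p = 0.999), and it turned to 0.065 without Control-3.

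Paxillin, the docking protein, was lower in every CLs-treated library but was not called. PXN stood at 155.9, 159.6 and 154.7 CPM in the control libraries and at 130.8, 131.0 and 135.8 CPM in the CLs-treated ones. The highest CLs-treated library was well under the lowest control library. PXN had a log2 fold change of -0.24 (95% interval -0.50 to 0.020), 84.6% of the control level, with an edgeR adjusted p of 0.881. Without CLs-1 it was -0.23. In all, 4 of the 9 tested members lay lower with no overlap between the groups (NEDD9, SGK223, PTK2 and PXN) and 0 lay higher. NEDD9 and SGK223 were chosen for their fall, so they are left out of the comparison with all genes. Outside them 2 of 7 lay lower and 0 higher, beside 6.18% and 5.34% of all tested genes. For a single gene, an exact two-sided permutation test of 3 against 3 cannot go below p = 0.10.

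Between the CRK adaptors, which carry the same kinds of binding domain, CRK had 847, 868 and 767 counts in the control libraries and 1279, 777 and 807 in the CLs-treated ones. CLs-1 was the highest library for CRK at 88.5 CPM, and the remaining 5 lay between 65.8 and 75.0 CPM. For CRK the log2 fold change was 0.080 (95% interval -0.24 to 0.40, edgeR adjusted p = 0.999) and became -0.052 without CLs-1. CRKL had 540, 606 and 679 counts against 810, 438 and 467 counts, and again CLs-1 stood above its group, at 56.1 CPM beside 37.9 and 40.9 CPM. For CRKL it was -0.22 (95% interval -0.60 to 0.15, edgeR adjusted p = 0.986). Without CLs-1 the CRKL groups no longer overlapped, where 13.7% of all genes lay lower without overlap. Its log2 fold change was then -0.41, with an edgeR adjusted p of 0.429.

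**Figure D2:**
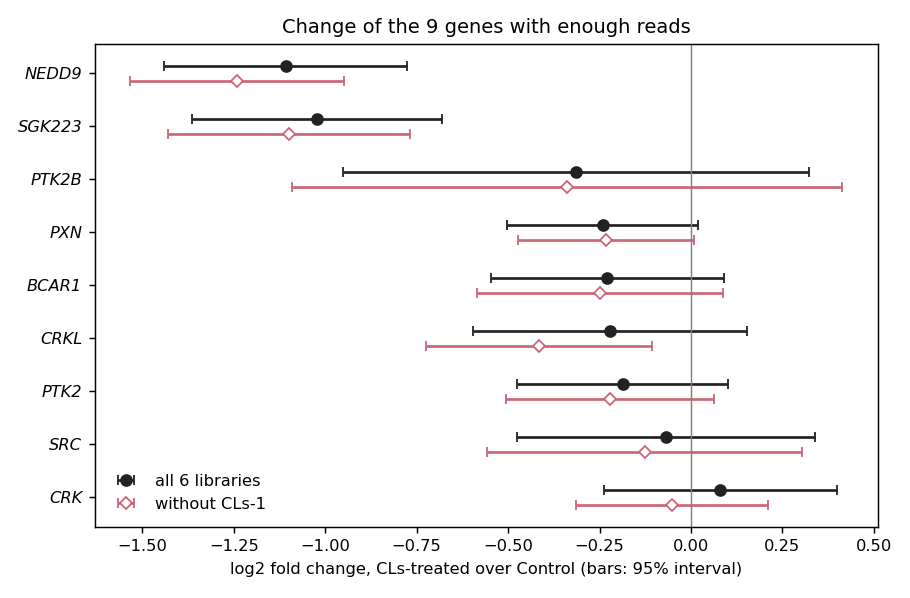
Log2 fold change of the CLs-treated over the control group on the x axis for the 9 genes with enough reads, with 95% intervals that are not adjusted for the number of genes. Filled circles use all 6 libraries and open diamonds leave out CLs-1. NEDD9 (-1.11) and SGK223 (-1.02) were chosen for their fall in these libraries, so their distance from the other genes follows in part from the choice. The other 7 lie between -0.31 and 0.080.

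Levels of different genes were compared per kilobase of merged exon, with exon lengths from GENCODE 29, an annotation of a newer build than the one used for counting. In the control group PXN was the most abundant, at 25.4 ± 0.413 CPM per kb (SD, n = 3), followed by CRK at 18.4 ± 1.27 CPM per kb. NEDD9 was next, at 13.3 ± 1.16 CPM per kb, and its range of 12.2 to 14.5 overlapped that of PTK2, which reached from 11.4 to 12.8 CPM per kb. CRKL and BCAR1, at 9.86 and 9.39 CPM per kb, could not be told apart by their ranges either. SGK223 followed at 6.24 CPM per kb, then SRC at 2.72 and PTK2B at 0.786 CPM per kb.

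In the CLs-treated group NEDD9 was the sixth, at 6.15 ± 0.973 CPM per kb (SD, n = 3), behind PXN, CRK, PTK2, CRKL and BCAR1. The order of the other genes with reads was the same in both groups. The highest NEDD9 value, 7.22 CPM per kb, reached above the lowest CRKL value of 7.11 and stayed under the lowest BCAR1 value of 7.32. SGK223, at 3.07 CPM per kb, kept its place just above SRC at 2.59. With the length of the longest transcript in place of the merged exons, 5 of the 10 genes took another place in the control order, and NEDD9 went from the second to the fifth place.

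The genes whose profile over the 6 libraries was most like that of NEDD9 were sought among 9895 genes of at least 10 CPM, by the root mean square distance between log2(CPM + 1) values centred on each gene's mean. SGK223 was the second nearest to NEDD9, at a distance of 0.10, after ANXA3 (annexin A3) at 0.097. KRT8P10, a pseudogene that could share reads with KRT8, the desmosomal plakophilin PKP2 and the sterol enzyme DHCR7 completed the first 5, at 0.16, 0.18 and 0.20. From the side of SGK223, NEDD9 was the nearest gene at 0.10, followed by the laminin-related NTN4 at 0.11 and by PKP2, ANXA3 and DHCR7. NTN4 was itself called lower, with a log2 fold change of -0.87, and PKP2, at -0.92, was not called. NEDD9 and SGK223 were both chosen for their fall in these libraries, so their nearness follows in part from the choice.

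Direct relatives and partners of the scaffolds were not called. PEAK1, the relative of SGK223, was at 44.5 ± 2.32 CPM (SD, n = 3) without CLs and at 39.2 ± 10.0 CPM (SD, n = 3) with them, with an edgeR adjusted p of 0.999. Without CLs-1 its log2 fold change moved from -0.18 to -0.40. For each PEAK1 read there were 0.627 to 0.771 SGK223 reads in the control libraries and 0.329 to 0.451 in the CLs-treated libraries. This ratio follows from the same SGK223 counts and is no separate evidence of the fall. BCAR3, which binds the far end of CAS scaffolds, showed a log2 difference of -0.085 (standard error 0.17), and its relative SH2D3A one of -0.054 (standard error 0.21). CASS4, SH2D3C and PEAK3, the other 3 of the 6 genes in this list, had too few reads to be tested. Of the 3 tested, 0 were called, beside 0.0731% lower and 0.0133% higher of all genes tested. An unadjusted edgeR p under 0.05 was found for 0 of the 3 and for 874 of the 15047 genes tested.

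Among 13 SRC-family kinases and regulators of SRC, 9 were tested and 0 were called by edgeR or DESeq2. Over all genes, edgeR called 0.0731% lower and 0.0133% higher. Beside 874 of the 15047 genes tested, 1 of the 9 had an unadjusted edgeR p under 0.05. That gene was FYN, a SRC-family kinase, at 100, 94 and 177 counts in the control libraries and 108, 74 and 74 in the CLs-treated ones. Its CLs-treated libraries lay below the control libraries on the CPM scale, and the log2 fold change was -0.65 (standard error 0.26, edgeR adjusted p = 0.759). Over the fits that left out 1 library it ran from -0.81 to -0.30, the latter without Control-3, its highest control library. This 1 gene of 9 apart stands beside 6.18% of all genes lower. CSK, the kinase that holds SRC inactive and binds SGK223, was at 71.0 ± 6.74 CPM (SD, n = 3) and 58.1 ± 10.2 CPM (SD, n = 3), and its groups overlapped. The median log2 fold change of this list was -0.048, beside 0.010 over all genes tested.

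The 23 effectors that work downstream of CRK, FAK and SRC had a median log2 fold change of -0.0036 over the 21 tested, with 12 negative and 9 positive values. By edgeR and by DESeq2 0 were called, where edgeR called 0.0731% of all genes lower and 0.0133% higher. An unadjusted edgeR p under 0.05 was found for 2 of the 21 and for 874 of the 15047 genes tested. RAPGEF1, the exchange factor that CRK brings to RAP1, had 1287, 1175 and 1262 counts in the control libraries and 1250, 837 and 773 in the CLs-treated ones. On the CPM scale its groups did not overlap, at 107.1 ± 5.23 (SD, n = 3) and 75.5 ± 9.81 (SD, n = 3), and the log2 fold change was -0.50 (standard error 0.14, edgeR adjusted p = 0.327). The tyrosine kinase ABL2 and the exchange factor ARHGEF7 were the other genes of this list without overlap, at -0.39 and -0.17, each lower by a narrow margin. In all, 3 of the 21 lay lower without overlap and 0 higher, beside 6.18% and 5.34% of all genes. Without CLs-1, 7 lay lower and 2 higher, where 13.7% and 13.6% of all genes did, and the median of the list was -0.12.

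Plaque proteins of the focal adhesion formed the list with the most members apart. Like the other lists, it was chosen with earlier results of these data known, so its counts are a description. Of its 24 genes 23 were tested, 19 had a negative and 4 a positive log2 fold change, and the median was -0.30. In 13 of the 23 the CLs-treated libraries lay below the control libraries, and in 0 above, beside 6.18% and 5.34% of all genes. Of the 23, edgeR called 0, beside 0.0731% lower and 0.0133% higher of all genes, although 11 had an unadjusted p under 0.05. Over all genes, 874 of 15047 had an unadjusted edgeR p under 0.05. DESeq2 called 3 lower, ZYX, TNS4 and FHL2, among the 91 genes that it called lower in all. With no filter on low counts, edgeR called 113 genes lower in all. Of the list these were 2, ZYX at an adjusted p of 0.0470 and TNS4 at 0.00493. TNS4, a tensin that lacks an actin-binding region, had 1511, 2117 and 2415 counts in the control libraries and 1110, 1194 and 1308 in the CLs-treated ones. Its log2 fold change was -0.82 (standard error 0.20, edgeR adjusted p = 0.240). A fit blocked on the replicate number called it, with 56 genes called lower in all. ZYX (zyxin), a marker of mature adhesions and stress fibres, stood at 148.8 ± 10.2 CPM (SD, n = 3) and 97.5 ± 7.55 CPM (SD, n = 3), a log2 fold change of -0.61 (standard error 0.13, edgeR adjusted p = 0.173). FHL2, a LIM-domain protein that binds integrins, was at 447.5 ± 59.7 CPM (SD, n = 3) and 294.9 ± 36.3 CPM (SD, n = 3), with an edgeR adjusted p of 0.260. Without CLs-1 the median of the list was -0.38.

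**Figure D3:**
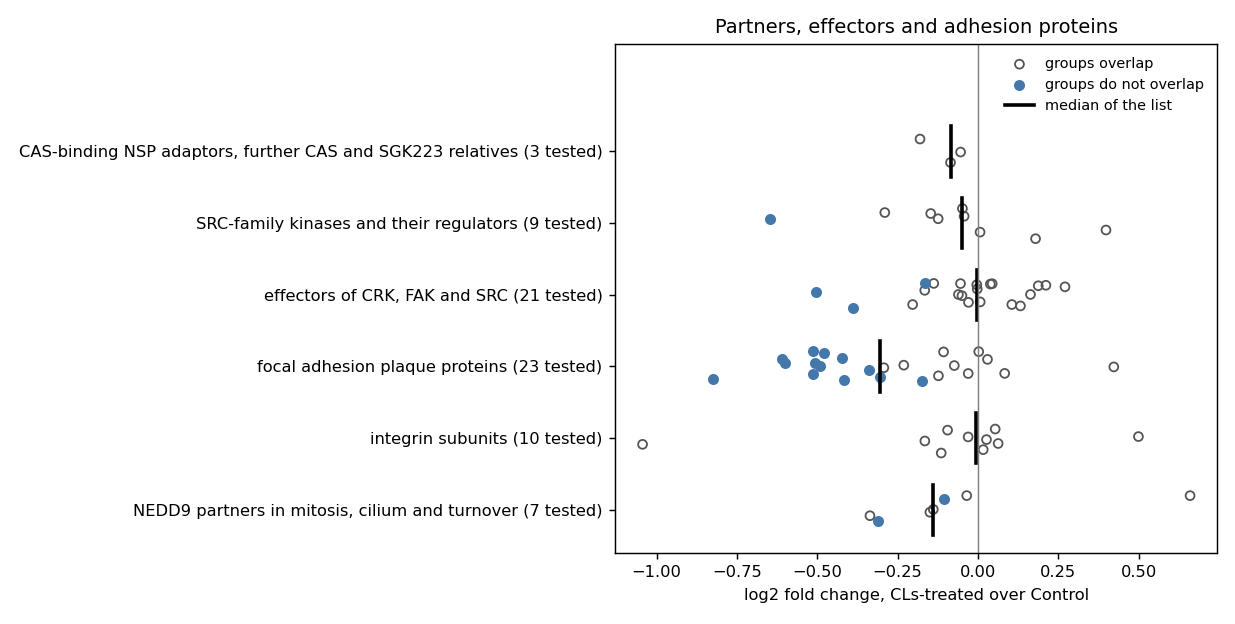
Log2 fold change of the CLs-treated over the control group on the x axis for the tested genes of 6 lists, 1 point a gene, spread vertically for sight. Filled points are genes whose groups do not overlap and black bars are list medians. The plaque proteins hold 13 filled points and a median of -0.30, while the medians of the other lists lie between -0.14 and -0.0036.

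Integrin subunits, which sit upstream of FAK, had a median log2 fold change of -0.0071 over the 10 tested of 12, with 5 negative and 5 positive values. Of the 10, 0 lay apart between the groups, beside 6.18% lower and 5.34% higher of all genes. By edgeR or DESeq2 0 were called, where edgeR called 0.0731% of all genes lower and 0.0133% higher. For 0 of the 10, and for 874 of the 15047 genes tested, the unadjusted edgeR p was under 0.05. ITGB1, the common beta subunit, was at 450.9 ± 34.1 CPM (SD, n = 3) and 467.9 ± 98.3 CPM (SD, n = 3). The lowest value of the list, -1.04 for ITGB4, came with control counts of 32, 60 and 369. Without CLs-1, 2 of the 10 lay lower without overlap, ITGB1 and ITGB8, where 13.7% of all genes did, and the median was -0.14.

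NEDD9 also works away from adhesions, where it activates the mitotic kinase AURKA and takes part in the loss of the cilium. Over 7 partners and regulators of NEDD9 the median log2 fold change was -0.14. By edgeR or DESeq2 0 were called, where edgeR called 0.0731% of all genes lower and 0.0133% higher. For 0 of the 7, and for 874 of the 15047 genes tested, the unadjusted edgeR p was under 0.05. AURKA was at 175.5 ± 17.5 CPM (SD, n = 3) and 159.4 ± 16.9 CPM (SD, n = 3), and its groups overlapped. TRIO, an exchange factor bound by NEDD9, lay lower without overlap, at 246.3 ± 26.1 CPM (SD, n = 3) and 198.6 ± 27.0 CPM (SD, n = 3), with an edgeR adjusted p of 0.863. FZR1, an activator of the ubiquitin ligase that degrades NEDD9, was the other gene apart, and the log2 fold change was -0.11 (standard error 0.13). Both gaps were narrow, from 229.6 to 227.7 CPM for TRIO and from 52.8 to 52.7 CPM for FZR1, and these 2 of 7 stand beside 6.18% of all genes.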

How the data were processed

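Reads were mapped with MapSplice by the authors, and the deposited counts are unnormalized whole numbers of reads for each gene symbol. The submitters' processing notes name HTSeq 0.6.1, hg19 and GRCh37. Whether strand was used in counting, and how multiply matching reads were handled, is not given in the sources used here. All 6 columns were used. Genes were filtered with filterByExpr, scaled by TMM and compared with the quasi-likelihood F test of edgeR 4.0.16 in R 4.3.3, on condition alone. Standard errors were derived from the F statistic, and the 95% intervals from its degrees of freedom. EBSeq, which the study used, was not run. The script was tested on simulated counts, drawn without any pattern particular to a library, such as that of CLs-1. In those counts 10.4% of 1.5-fold changes, 71.1% of 2-fold changes and 96.5% of 4-fold changes were called. The shares in these data may differ. A gene that was not called is therefore not shown to be unchanged. Alternatives were DESeq2 1.42.0, other scalings, no filter on low counts, no fold criterion, a block on the replicate number, and each library left out in turn.

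The members, the gene lists and the rules were chosen with earlier results of these data known. The named genes are the members, any called gene of each list, up to 3 genes of each list with the largest change whose groups do not overlap, the 5 genes nearest to NEDD9 and to SGK223, and the cell type markers. PEAK1, BCAR3, SH2D3A, CASS4, SH2D3C, PEAK3, CSK, ITGB1, ITGB4, ITGB8 and AURKA were named after their values had been seen. SGK223 was matched to PRAG1 through the RefSeq synonyms for its exon length. Counts of groups without overlap leaving out CLs-1, and the length of the longest transcript, were added after seeing the data.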

Additional observations from a re-analysis of the deposited data

How the results depend on the processing

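The number of genes called over the whole table depended on the test. Against 2 genes called higher and 11 lower, DESeq2's Wald test called 16 and 91, edgeR with no filter on low counts 58 and 113, and library totals alone left 6 lower. Leaving out 1 library gave 1 to 3 genes higher and 2 to 6 lower. The number of members called was 2, became 1 with library totals alone and was 0 or 1 with a library left out. Among single members the direction turned for SRC, from -0.13 to 0.065 over the left-out libraries, and for CRK, from -0.052 to 0.16; the causes were not tested. List medians with a library left out ran from -0.12 to 0.013 for the effectors and from -0.38 to -0.27 for the plaque proteins. They ran from -0.22 to -0.065 for the NEDD9 partners and from -0.16 to -0.028 for the SRC-family kinases and regulators. The integrin median went from -0.14 without CLs-1 to 0.097 without CLs-2. That of the list with BCAR3, SH2D3A and PEAK1 went from -0.16 without CLs-3 to 0.035 without CLs-1. This list, the effectors and the integrins thus changed sign.

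With the replicate number as a block, 12 genes were called higher and 56 lower, and TNS4 was the only list gene to gain a call. The numbers are shared by the groups in the labels only. The deviations of same-numbered libraries had correlations of 0.11, 0.099 and 0.31, the second under the limit of 0.1 set for pairing, although each library correlated best with its own number. NEDD9 and SGK223 stayed called under the block, and no other member gained a call. Depth limits PTK2B, with at most 59 counts in a library, and EFS, with at most 4.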
